A study of Homo sapiens with 30 samples.

Results

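The genes described here are HS3ST1, FUT8, ZMIZ1, IWS1, ARHGAP12, PLEKHG3 and LRRC1, of 17283 genes named on the array. These 7 genes were picked because their RNA was among those that fell most in HCT116 cells kept in 100 nM actinomycin D. They were chosen on the arrays of the 100 nM and untreated groups, so their values at 100 nM are given as a description with no test. Every probe annotated to the 7 genes was followed, 10 of 22177. Of these 10 probes, 8 were detected on all 3 arrays of at least 1 group, as were 12896 probes in all, and these 8 are called the detected probes below. A second FUT8 probe was detected on 0 of 30 arrays and LRRC1 probe 3902, the third for that gene, on 1 of 30, so neither gave a change.

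HCT116 is an established human line from a colon adenocarcinoma. The wild-type line (WT) and an isogenic line made without p53 (p53KO) each gave 5 groups of 3 arrays: untreated, actinomycin D at 1, 10 or 100 nM for 16 hours, and nutlin-3 at 4 µM for 16 hours. All groups share the same medium and an overnight seeding before treatment, and no time is given for the untreated cells. The labels do not say whether the arrays of a group came from separate cultures or how many clones stand behind the p53KO line, and p-values therefore cover the variation among these arrays alone, which may be technical.

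Actinomycin D inserts into DNA beside GpC steps and stops moving RNA polymerases. Low doses act mainly on the ribosomal RNA genes, and higher doses stop messenger RNA synthesis as well, after which the level of a messenger follows its own decay. Nutlin-3 leaves transcription running and frees p53 from its inhibitor MDM2. The 7 genes have unrelated products. HS3ST1 encodes a sulfotransferase that finishes the antithrombin-binding site of heparan sulfate, and FUT8 the enzyme that puts the core fucose on N-glycans. ZMIZ1 is a coactivator related to the PIAS proteins, and IWS1 joins the elongation factor SPT6 to RNA processing. ARHGAP12 is a GTPase-activating protein, PLEKHG3 a guanine nucleotide exchange factor, and LRRC1 is a scaffold of the lateral membrane in the family of Scribble and Erbin.

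The promoters of HS3ST1 and IWS1 are printed because these genes have spans of similar length and both fell at 100 nM, while at 10 nM HS3ST1 was called lower and IWS1 was not called. Each is the 250 bases before the start in RefSeq (GRCh38.p14), 5′ to 3′ on the gene's own strand, with GC boxes (GGGCGG or its reverse complement CCGCCC, overlaps allowed) in capitals. HS3ST1 lies at chr4:11428895-11429144 and IWS1 at chr2:127526490-127526739, both on the minus strand.
HS3ST1: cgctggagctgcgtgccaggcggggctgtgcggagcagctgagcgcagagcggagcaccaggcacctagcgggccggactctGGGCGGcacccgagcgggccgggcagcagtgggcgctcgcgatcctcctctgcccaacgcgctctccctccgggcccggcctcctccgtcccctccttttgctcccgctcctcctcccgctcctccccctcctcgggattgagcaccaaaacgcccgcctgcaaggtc
IWS1: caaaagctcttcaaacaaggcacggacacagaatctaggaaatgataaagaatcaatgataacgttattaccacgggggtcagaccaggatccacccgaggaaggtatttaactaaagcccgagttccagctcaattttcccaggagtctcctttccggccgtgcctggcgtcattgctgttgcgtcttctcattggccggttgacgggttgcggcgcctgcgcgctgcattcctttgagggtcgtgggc
HS3ST1 had 73.2% G or C, 37 GpC steps and 1 GC box in this window. IWS1 had 52.8%, 18 GpC steps, no GC box and 1 CCAAT box (CCAAT or ATTGG). The median over 13077 starts of the genes tested was 64.4% and 26 GpC steps. A GC box stood in 63.2% of those windows and in 42.6% of all 35116 windows of this length. The table held 9 starts for 5 of the 7 genes, and 4 of these starts had a GC box. The ARHGAP12 starts among these 4 have overlapping windows that share GC boxes, so they are not separate cases. For FUT8 its 3 starts ranged from 36.0% to 74.0% G or C. Those of ARHGAP12 ranged from 30.8% to 75.6%, and the start of LRRC1 had 69.6%. A match is a description of letters and not of binding.

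Before the results, 4 arrays need naming. PROM1, a membrane glycoprotein used to check the genotype labels, lay between 8.13 and 9.0 (log2 intensity) on all WT arrays but the array labelled WT nutlin replicate 3, at 4.36. It lay between 4.19 and 4.97 on all p53KO arrays but the array labelled p53KO nutlin replicate 3, at 9.07. These 2 arrays went against their labels. Replicate 1 of the untreated cells was unlike the other replicates, in either genotype, for the immediate early gene FOS, at 9.66 in WT and 11.11 in p53KO cells against 7.29 to 8.28 on the other 4. By the array names, the untreated replicate 1 arrays lay on slide 2 and the other 4 untreated arrays on slide 4. Replicate 1 and slide thus cannot be told apart there. The third nutlin arrays each lay on a slide that held no other array used here. Counts are given with all 30 arrays as labelled and, where they change, without the 4 named arrays. Untreated and nutlin arrays then come from 1 slide each, so slide differences enter less into the spread that all comparisons share. The raw 75th percentile was 101 to 135 intensity units on the 100 nM arrays and 133 to 306 elsewhere, and 10101 to 10690 probes were detected at 100 nM against 11338 to 12629. The low ends elsewhere, 133 and 11338, came from the p53KO 1 nM group. Its replicate 2 was dim in raw units, with HS3ST1 at 362 against 872 and 987 on replicates 1 and 3. That array was kept, except where 1 array at a time was left out. Of 12 colon epithelial markers, 6 (EPCAM, KRT8, KRT18, KRT19, CDX2 and CLDN3) were detected on all 30 arrays, 3 on some, and VIL1, CDX1 and CEACAM5 on none. Of 13 measured markers of other cell types none was detected on all arrays and 7, among them CD3E, HBB, VWF and ALB, on none. The summed intensity of the 13 was 382 to 518 on the 100 nM arrays and 286 to 332 on all others. At 100 nM CD14, a monocyte marker, was higher by 2.54 in WT and 2.09 in p53KO cells (log2, adjusted p = 6e-11 and 2.2e-09). COL1A1, a fibroblast marker, was higher by 0.42 and 0.98 (adjusted p = 0.033 and 1.9e-05), and the neuronal MAP2 was at -0.66 and -0.62 (adjusted p = 0.005 and 0.0086). These were the 3 markers of other cell types tested, and their part in the falls at 100 nM was not tested. Of the 8 colon markers tested at 100 nM, 1 was higher and 2 lower in WT cells. In p53KO cells 1 was higher and 3 lower. Of all probes, 31.4% were lower and 34.0% higher in WT cells, and 31.3% and 34.4% in p53KO cells. CDX2 changed by -0.81 and -0.99 and KRT8 by 0.37 and 0.43 in WT and p53KO cells. These values and shares at 100 nM are relative to a general shift. Without normalisation between arrays the all-probe median was -0.75 in WT and -0.65 in p53KO cells, so a smaller rise may be no rise in amount. At 10 nM the colon markers CDX2 (0.82) and KRT8 (0.63) were called higher and MAP2 (-0.66) lower in WT cells, and no marker was called in p53KO cells.

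At 100 nM the 7 genes went from well measured to the edge of detection. No slide held both 100 nM and untreated arrays, so slide and treatment cannot be told apart in these changes. Levels are log2 intensities after background correction and quantile normalisation, so a step of 1 is a 2-fold difference. HS3ST1 read 9.29, 9.43 and 9.70 on the untreated WT arrays and 4.76, 5.22 and 4.76 at 100 nM. In raw units these were 700, 833 and 983 against 53.8, 55.6 and 49.2. In p53KO cells it read 9.26, 10.09 and 10.13 untreated and 5.58, 5.77 and 5.95 at 100 nM. The untreated arrays stood far above the 100 nM arrays in both genotypes, with a change of -4.06 ± 0.20 (log2, SE, n = 3 arrays a group) in p53KO cells, where it was detected on all 3 arrays at 100 nM. In WT cells it was detected on 1 of the 3, so the change of -4.56 ± 0.20 rests mostly on values not above background. Since RNA was pooled from whole cultures, fewer cells holding this RNA and less of it in each cell cannot be told apart.

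The second glycan enzyme, FUT8, read 7.47, 7.25 and 7.44 in untreated WT cells and 4.32, 4.25 and 4.24 at 100 nM. Its p53KO arrays read 7.99, 8.58 and 8.66 untreated and 4.41, 4.44 and 4.48 at 100 nM. It was not detected on any 100 nM array, so its fall was at least 4.47-fold in WT and at least 8.39-fold in p53KO cells. In such a bound an undetected value counts as the lowest value that passed detection on that array, or as its own value if higher.

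The coactivator ZMIZ1 read 9.30, 8.87 and 8.82 in untreated WT cells and 4.85, 5.43 and 5.20 at 100 nM, where it was detected on 1 of the 3 arrays, a change of -3.84 ± 0.21. Its p53KO arrays read 9.05, 8.80 and 8.66 untreated and 4.65, 4.31 and 4.4, detected on none of the 3 arrays at 100 nM, a fall of at least 11.3-fold. Most of its 100 nM arrays were thus below detection. IWS1 read 9.07, 9.24 and 9.22 in untreated WT cells and 4.91, 4.90 and 4.84 at 100 nM, where it was not detected, a fall of at least 15.4-fold. In p53KO cells it read 9.35, 9.49 and 9.31 untreated and 6.28, 5.80 and 5.78 at 100 nM, detected on all 3 arrays, a change of -3.43 ± 0.13. At 100 nM IWS1 was thus detected in p53KO cells alone.

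ARHGAP12 read 8.97, 8.65 and 9.08 in untreated WT cells and 4.34, 4.54 and 4.53 at 100 nM, a fall of at least 12.8-fold to below detection. The p53KO arrays went from 9.20, 9.55 and 9.51 to 5.32, 5.46 and 5.72, all detected, a change of -3.92 ± 0.19. PLEKHG3 went from 8.46, 8.80 and 8.78 to 4.36, 4.31 and 4.65 in WT cells, a fall of at least 11-fold. The p53KO arrays went from 8.88, 8.59 and 8.58 to 5.41, 5.50 and 4.82, detected on 2 of the 3, a change of -3.44 ± 0.16. Neither gene was detected on any WT array at 100 nM.

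For LRRC1 probe 13949 went from 9.02, 9.37 and 9.56 to 5.46, 4.95 and 4.89 in WT cells, detected on 1 of the 3, a change of -4.22 ± 0.18. The p53KO arrays went from 8.88, 9.01 and 9.10 to 4.96, 4.82 and 5.18, below detection, a fall of at least 12.6-fold. Every 100 nM array lay below every untreated array for all 8 detected probes in both genotypes, as for 30.4% of the 12896 probes in WT and 31.9% in p53KO cells. By limma's adjusted p under 0.05, 65.4% of all probes were called in WT cells at 100 nM (31.4% lower and 34.0% higher) and 65.7% in p53KO cells, and the 8 probes were among them by the way they were chosen. The median change of the 8 was -4.23 in WT and -3.94 in p53KO cells, against 0.06 and 0.05 over all 12896 probes. With the 5 WT and 4 p53KO probes below detection set to their bounds it was -3.75 and -3.46. Without normalisation between arrays the all-probe median was -0.75 for WT and -0.65 for p53KO cells, so each change is relative to a general shift of that size.

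**Figure D1:**
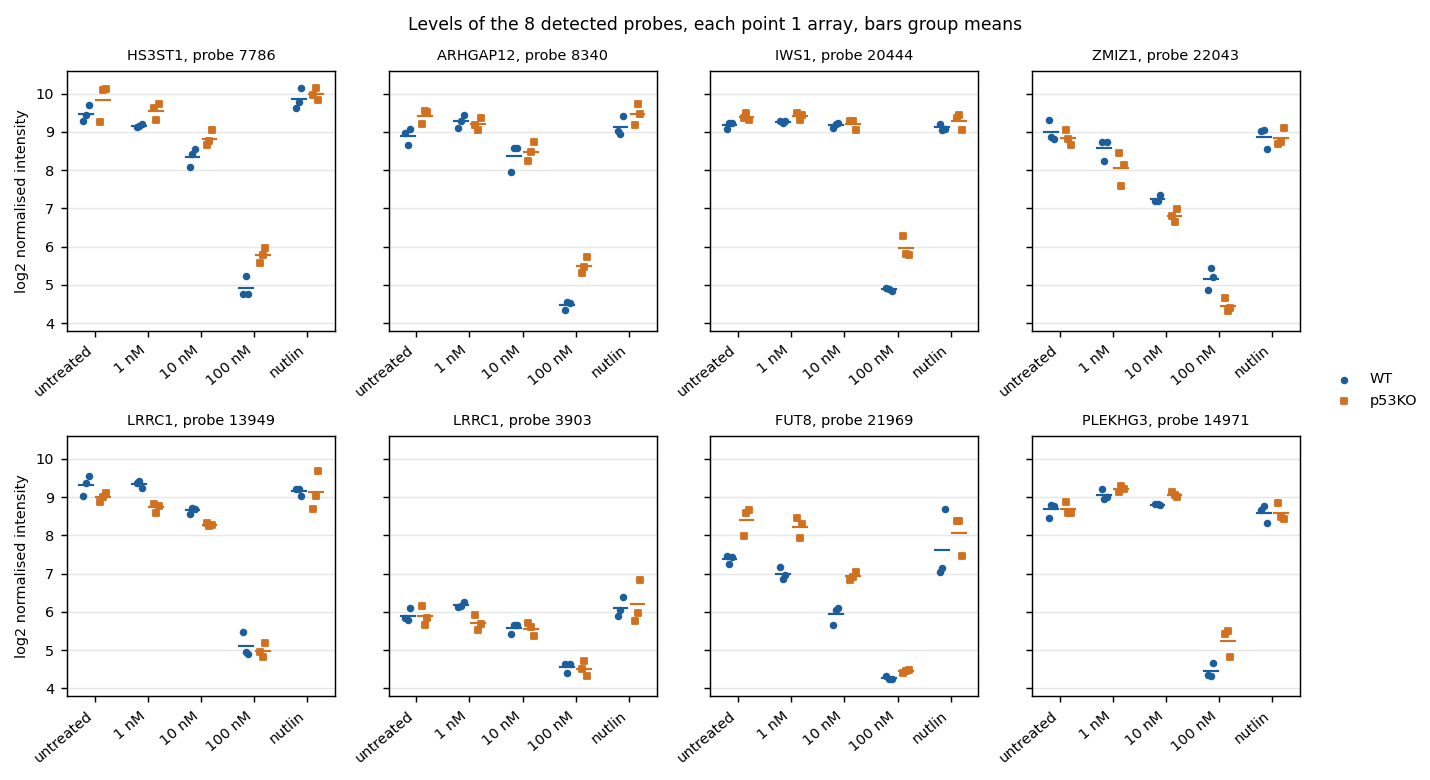
Log2 normalised intensity of the 8 detected probes in the 10 groups, WT as circles and p53KO as squares, each point 1 array and each bar a group mean. All genes drop between 10 and 100 nM, HS3ST1, ZMIZ1 and FUT8 are already lower at 10 nM, and no fall is called for IWS1 or PLEKHG3 up to 10 nM.

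Genes outside the set had like estimates in WT cells, given without an order since several members end below detection. Among them were TTK, a spindle checkpoint kinase, at -4.42, CENPA, the centromeric histone, at -4.36, UBASH3B at -4.18, GOLPH3 at -4.11, JMJD1C at -4.09 and KIF11 at -4.07. These 6 genes are named after their values were seen. The 7 members are thus not the 7 lowest estimates in WT cells, where FUT8 had -3.11.

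The dose of 10 nM split the 7 genes. Of the 8 detected probes 5 were lower in WT cells than untreated and 0 higher, where limma called 14.6% of all probes lower and 15.4% higher. In p53KO cells the same 5 probes were lower and 0 higher, where 10.5% were called lower and 10.1% higher. They were the probes of HS3ST1, FUT8, ZMIZ1 and ARHGAP12 and LRRC1 probe 13949. IWS1, PLEKHG3 and LRRC1 probe 3903 were not called. These comparisons use the same untreated arrays as the 100 nM comparisons that chose the genes. The median change of the 8 probes was -0.59 in WT and -0.83 in p53KO cells, against 0.04 in both over all probes. Without normalisation between arrays 3 probes were lower and 0 higher in WT cells (7.79% of all lower, 13.8% higher), and 2 lower and 1 higher in p53KO cells (3.33% and 26.6%). The p53KO changes of HS3ST1, ARHGAP12 and LRRC1 probe 13949 were then -0.57, -0.52 and -0.30, none called, where the all-probe median was 0.37.

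ZMIZ1 fell furthest at 10 nM. Its arrays read 7.19, 7.18 and 7.36 in WT and 6.80, 6.63 and 6.98 in p53KO cells, against 8.66 and above on every untreated array. The change was -1.75 ± 0.21 in WT cells (limma adjusted p = 1.2e-06) and -2.03 ± 0.21 in p53KO cells (adjusted p = 4.5e-07). At 10 nM 21.8% of all probes in WT and 20.9% in p53KO cells lay below all untreated arrays, and 24.8% and 25.3% lay above them. FUT8 read 5.66, 6.05 and 6.10 in WT and 6.84, 6.90 and 7.05 in p53KO cells, all below the untreated arrays of their genotype. Its change was -1.45 ± 0.29 (adjusted p = 0.00051) in WT and -1.48 ± 0.29 (adjusted p = 0.00067) in p53KO cells.

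HS3ST1 read 8.07, 8.41 and 8.55 in WT and 8.65, 8.75 and 9.04 in p53KO cells at 10 nM, again with no overlap with untreated cells. It changed by -1.13 ± 0.20 (adjusted p = 0.00015) in WT and by -1.02 ± 0.20 (adjusted p = 0.00072) in p53KO cells. ARHGAP12 read 7.96, 8.58 and 8.58 in WT cells and 8.23, 8.48 and 8.73 in p53KO cells. It fell by 0.94 in p53KO cells (SE 0.19, adjusted p = 0.00077). In WT cells the change was -0.53 ± 0.19 (adjusted p = 0.033), which was not called with slide as a random block (adjusted p = 0.17) or without the 4 doubted arrays (adjusted p = 0.054), nor without untreated replicate 1 (-0.49), untreated replicate 3 (-0.44) or 10 nM replicate 1 (-0.32).

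IWS1 was not called at 10 nM. It read 9.09, 9.20 and 9.24 in WT cells, overlapping the untreated arrays, and 9.29, 9.27 and 9.06 in p53KO cells, below all 3 untreated arrays. The change was 0.01 in WT cells with a 95% interval from -0.26 to 0.27, and -0.18 in p53KO cells with an interval from -0.44 to 0.08. PLEKHG3 read 8.81, 8.81 and 8.80 in WT cells, at or just above the top of the untreated range. It read 9.14, 9.05 and 9.0 in p53KO cells, above all 3 untreated arrays. Its changes were 0.13 ± 0.16 (adjusted p = 0.61) and 0.38 ± 0.16 (adjusted p = 0.1). Without the 4 doubted arrays the p53KO change was 0.48 ± 0.16 (adjusted p = 0.029), so 5 probes were then lower (13.6% of all) and 1 higher (13.9%) in p53KO cells, and 4 lower in WT cells (18.6%).

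**Figure D2:**
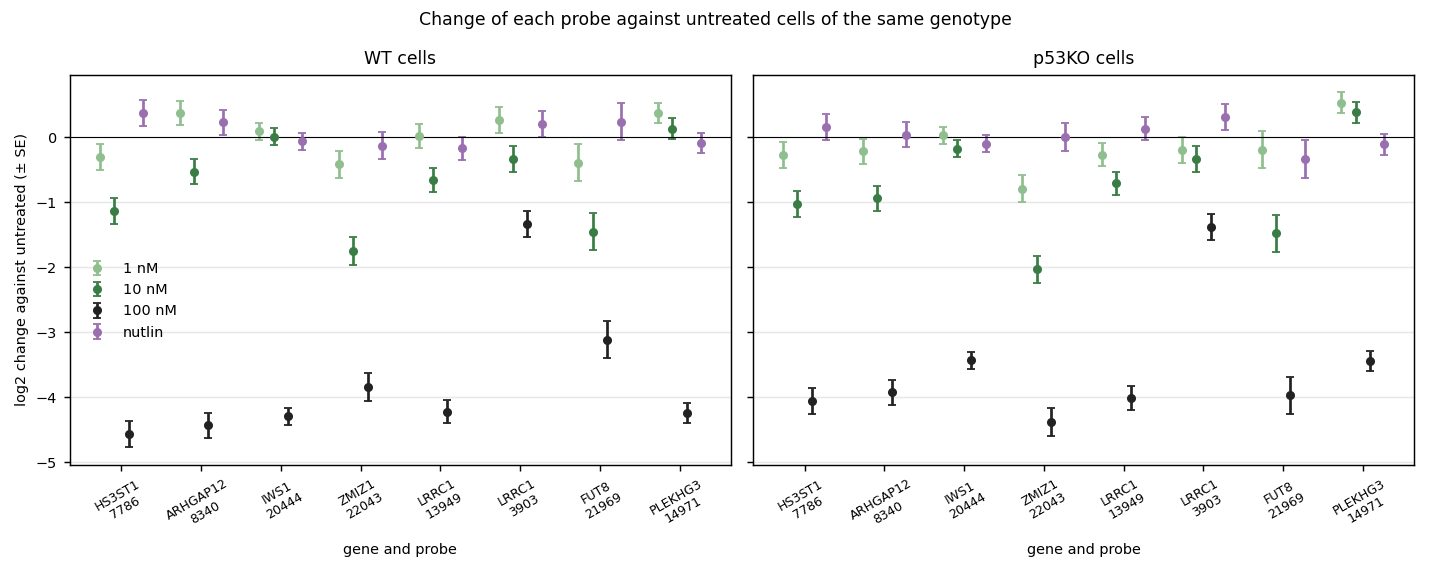
Log2 change of the 8 detected probes against untreated cells of the same genotype at 1, 10 and 100 nM actinomycin D and with nutlin, with the moderated SE. The 10 nM points of ZMIZ1, FUT8 and HS3ST1 lie between -1.02 and -2.03, those of IWS1 and PLEKHG3 between -0.18 and 0.38, and the nutlin points near 0.

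The step from 1 to 10 nM uses no array that chose the genes. In WT cells 5 of the 8 probes were lower at 10 than at 1 nM and 0 higher, where 3.93% of all probes were lower and 1.79% higher. ZMIZ1 changed by -1.33 ± 0.21 (adjusted p = 0.00032), FUT8 by -1.05 ± 0.29 (adjusted p = 0.03), ARHGAP12 by -0.90 ± 0.19 (adjusted p = 0.0044), HS3ST1 by -0.82 ± 0.20 (adjusted p = 0.014) and LRRC1 probe 13949 by -0.68 ± 0.18 (adjusted p = 0.027). In p53KO cells 4 probes were lower and 0 higher, where 3.20% were lower and 1.36% higher, with ZMIZ1 at -1.24 ± 0.21 (adjusted p = 0.0011) and FUT8 at -1.30 ± 0.29 (adjusted p = 0.0096). HS3ST1 and ARHGAP12 were the others, at -0.74 and -0.72. The median of the 8 was -0.75 in WT and -0.58 in p53KO cells, against 0.03 in both over all probes. Without the 4 doubted arrays, which takes none from these groups but changes the shared spread, 6 probes were lower in WT (7.43% of all) and 5 in p53KO cells (6.76%).

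This step met no slide that held both doses. All 1 nM arrays lay on slide 3 and all 10 nM arrays on slides 1 and 5, so slide and dose cannot be told apart. Treating slide as a random block, 0 of the 8 probes were called in either genotype, as were 0.00775% of all probes in WT and 0% in p53KO cells, while ZMIZ1 kept a change of -1.36 (adjusted p = 0.16) in WT and -1.33 (adjusted p = 0.53) in p53KO cells. Leaving out 1 of the arrays compared gave 1 to 4 called probes in each genotype, and ZMIZ1 was called each time. Calls of the others were lost without 10 nM replicate 1, 2 or 3 or 1 nM replicate 1, 2 or 3 in WT cells, and without 10 nM replicate 1 or 2 or 1 nM replicate 1 or 3 in p53KO cells. Without normalisation between arrays the all-probe median was 0.23 for WT and 0.51 for p53KO cells, and 1 probe was called lower in each (0.450% and 0.349% of all). The p53KO 1 nM group holds the dim replicate 2 named above. Against untreated cells, which lay on slides 2 and 4, the block left 4 probes called in WT cells (8.16% of all probes lower) and 4 in p53KO cells (4.38%).

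At 1 nM no member was called. Against untreated cells 0 of 8 probes passed limma's adjusted p in WT cells, where 8.86% of all probes did, and 0 of 8 in p53KO cells, where 0.682% did. At an unadjusted p under 0.05 there were 1 and 2, against 3003 and 1630 of the 12896 probes. ZMIZ1 read 8.74, 8.24 and 8.74 in WT and 8.45, 7.58 and 8.12 in p53KO cells, with changes of -0.42 (adjusted p = 0.22) and -0.79 (adjusted p = 0.07). PLEKHG3 read 9.21, 8.94 and 8.99 in WT and 9.14, 9.29 and 9.22 in p53KO cells, above all untreated arrays of each genotype, with changes of 0.37 (adjusted p = 0.17) and 0.53 (adjusted p = 0.13). At this dose 16.0% of all probes in WT and 12.1% in p53KO cells lay above all untreated arrays. Without the 4 doubted arrays the p53KO change of PLEKHG3 was 0.63 (adjusted p = 0.032), 1 of 8 probes called where 3.24% of all were. Without p53KO 1 nM replicate 1 it was ZMIZ1 that was called. The 1 nM and untreated arrays shared no slide, and the untreated arrays also took part in choosing the genes.

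Nutlin moved none of the 8 probes past the threshold. It gave 0 of 8 in WT cells, where 0.225% of all probes were called, and 0 of 8 in p53KO cells, where 0.0465% were, and 0 of 8 at an unadjusted p under 0.05 in either (1579 and 1161 of 12896 probes). The changes of the 8 lay between -0.17 and 0.37 in WT and between -0.34 and 0.31 in p53KO cells. HS3ST1 had the highest WT value, with 9.62, 9.78 and 10.14 on the nutlin arrays. The 95% interval of its change was from -0.04 to 0.78. Its 10.14 came from the third array, which went against its label and lay on a slide of its own. The HS3ST1 change in WT cells was 0.13 (adjusted p = 0.78) without the doubted arrays. The p53KO ends, FUT8 at -0.34 and LRRC1 probe 3903 at 0.31, were then -0.24 and 0.12. The WT low end, LRRC1 probe 13949 at -0.17, was then -0.26. Without the doubted arrays 0 of 8 were called as well, against 2.22% and 0.0310% of all probes. That refit left nutlin arrays on slide 2 and untreated arrays on slide 4, so slide and treatment cannot be told apart in it. The untreated arrays also took part in choosing the genes.

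LRRC1 has 3 probes, and they differ in how much they moved. Probe 13949 was detected on 25 of 30 arrays and spanned 4.82 to 9.67, probe 3903 was detected on 24 arrays and spanned 4.33 to 6.84, and probe 3902 was detected on 1 array and spanned 4.24 to 4.81. Probe 3903 read 5.83, 5.79 and 6.09 in untreated WT cells, 5.42, 5.66 and 5.66 at 10 nM and 4.64, 4.41 and 4.64, below detection, at 100 nM. In p53KO cells it read 6.16, 5.66 and 5.85 untreated, 5.70, 5.60 and 5.38 at 10 nM and 4.50, 4.71 and 4.33 at 100 nM. Every 100 nM array of probe 3903 lay below every untreated one, but the step was small. Its fall was at least 1.60-fold in WT and at least 1.46-fold in p53KO cells.

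At 10 nM probe 13949 read 8.55, 8.72 and 8.69 in WT and 8.32, 8.25 and 8.28 in p53KO cells, below all untreated arrays. It changed by -0.66 ± 0.18 in WT (adjusted p = 0.0074) and -0.71 ± 0.18 in p53KO cells (adjusted p = 0.0064), and probe 3903 by -0.33 ± 0.20 in both (adjusted p = 0.23 and 0.26). Under the slide block probe 13949 had an adjusted p of 0.049 in WT and 0.079 in p53KO cells, and without WT untreated replicate 3 the WT change was -0.54 (adjusted p = 0.051). The change of probe 13949 less that of probe 3903 was -0.34 in WT and -0.38 in p53KO cells, -0.36 over both. Over both genotypes it was -0.17 at 1 nM and -0.27 with nutlin. That the probes differ was known when the gene was picked, and probe 3903 lies near background, so these values are given with no test.

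**Figure D3:**
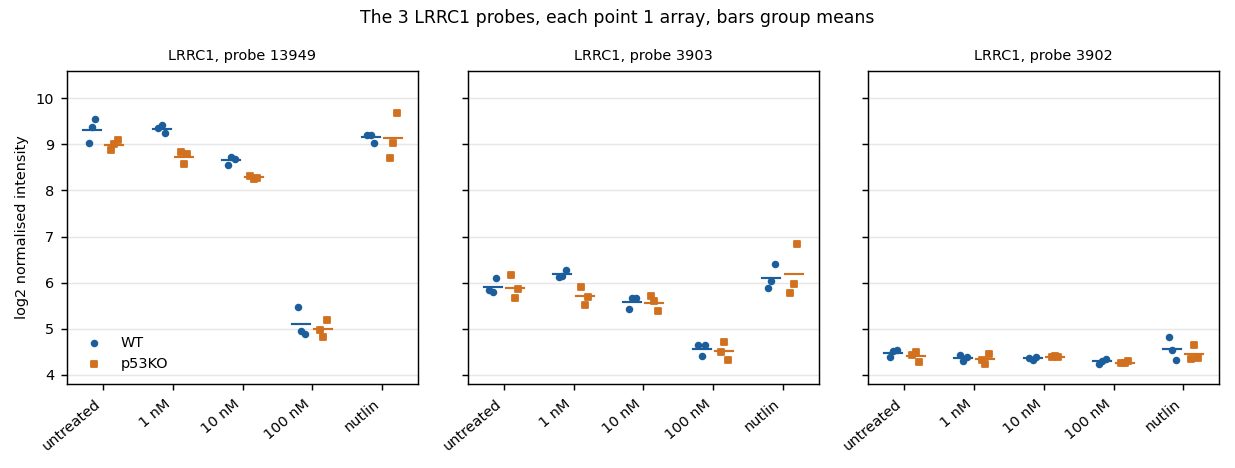
Log2 normalised intensity of the 3 LRRC1 probes in the 10 groups, each point 1 array and each bar a group mean, WT as circles and p53KO as squares. Probe 13949 spans 4.82 to 9.67 and drops at 100 nM, probe 3903 stays between 4.33 and 6.84, and probe 3902 lies near the bottom of the scale on all arrays.

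FUT8 was the member with the clearest difference between genotypes. Its untreated arrays read 7.47, 7.25 and 7.44 in WT and 7.99, 8.58 and 8.66 in p53KO cells. Every WT array thus lay below every p53KO array, as for 8.93% of all probes. These untreated arrays also took part in choosing the genes, so the untreated comparison is not independent of the choice. The difference, WT less p53KO, was -1.03 ± 0.29 (adjusted p = 0.085), and 0 of the 8 probes were called, as were 1.23% of all probes (2 of 8 and 1531 of 12896 at an unadjusted p under 0.05). Without the 4 doubted arrays, which leaves untreated cells on slide 4 alone, FUT8 differed by -1.28 ± 0.16 (adjusted p = 1.2e-05, 3.33% of all probes called). Within slide 2, with 1 array a genotype, the difference was -0.51, and within slide 4, with 2 arrays each, it was -1.28.

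At 1 nM FUT8 read 7.16, 6.86 and 6.95 in WT and 8.45, 7.93 and 8.29 in p53KO cells, a difference of -1.23 ± 0.29 (adjusted p = 0.0084), all on slide 3. LRRC1 probe 13949 was the other called probe, at 9.36, 9.41 and 9.24 in WT against 8.83, 8.58 and 8.78 in p53KO cells, 0.60 ± 0.18 higher in WT (adjusted p = 0.033). These were 2 of the 8, where 10.8% of all probes were called. Without WT replicate 2 the FUT8 difference was -1.17 (adjusted p = 0.056). Leaving out any single 1 nM array took the adjusted p of LRRC1 above the threshold, with differences of 0.53 to 0.65. Without the 4 doubted arrays 4 of 8 probes were called (21.7% of all), with ZMIZ1 at 0.53 and LRRC1 probe 3903 at 0.46 added, both higher in WT.

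At 10 nM FUT8 differed by -0.99 ± 0.29 (adjusted p = 0.023), the only one of the 8 called, where 13.6% of all probes were. Within slide 5, with 2 WT and 3 p53KO arrays, the difference was -1.05. With arrays of the same number paired as a replicate block the adjusted p was 0.056, and leaving out any 1 of the 6 arrays but WT replicate 3 also took it above the threshold, with differences from -1.04 to -0.85 and adjusted p from 0.056 to 0.091. Without the 4 doubted arrays it differed by -0.98 ± 0.13 (adjusted p = 6.8e-06), and HS3ST1 (-0.47, adjusted p = 0.025) and LRRC1 probe 13949 (0.37, adjusted p = 0.045) were called too (24.5% of all).

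The nutlin arrays of FUT8 followed PROM1 and not their labels. Those labelled WT read 7.04, 7.14 and 8.69 and those labelled p53KO 8.38, 8.38 and 7.45, so the third array of each label lay with the other genotype. As labelled the difference was -0.45 (adjusted p = 1), 0 of 8 probes and 0% of all probes were called (166 of 12896 at an unadjusted p under 0.05). Without the third arrays, which leaves the 2 of each genotype on slide 2, it was -1.29 (adjusted p = 9.3e-05). The response to 10 nM did not differ detectably between genotypes for FUT8, at 0.04 with a 95% interval from -0.80 to 0.88. Tested the same way, 0 of the 8 responses differed at 1 nM (0% of all probes called) or at 10 nM (0.395%), with 1 and 0 at an unadjusted p under 0.05 (766 and 1131 of 12896 probes). ARHGAP12 at 1 nM was that 1, at 0.58 (adjusted p = 0.75). The responses also use the untreated arrays that took part in choosing the genes.

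**Figure D4:**
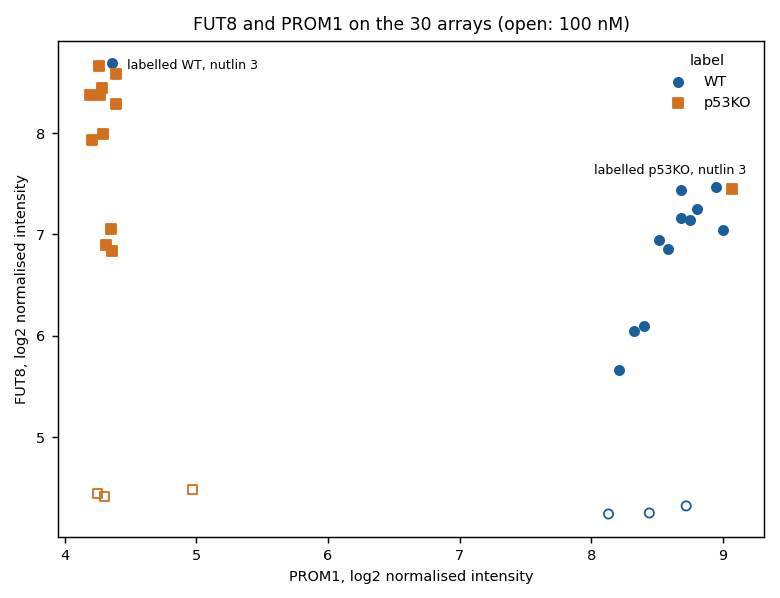
FUT8 against PROM1 (both log2 normalised intensity) on the 30 arrays, WT-labelled as circles, p53KO-labelled as squares, and 100 nM arrays open. The arrays labelled WT and p53KO nutlin replicate 3 lie among the other genotype on both axes, at 8.69 and 7.45 for FUT8.

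The members differ in length, which the choice did not use. By RefSeq annotation FUT8 spans 387 kb, ZMIZ1 248 kb, LRRC1 129 kb and ARHGAP12 123 kb, at percentile 87.7 or above among the 10881 genes compared. IWS1 spans 46.5 kb, PLEKHG3 45.8 kb and HS3ST1 41.2 kb. The 2 longest genes had the lowest changes at 10 nM, and of the 3 shortest HS3ST1 was called lower and IWS1 and PLEKHG3 were not called. Across the 10881 genes the Spearman correlation of span with the change at 10 nM was -0.36 in WT and -0.42 in p53KO cells, over points that share the same arrays and are not independent. The median change of the longest 25% of genes was -0.29 for WT and -0.27 for p53KO cells. For the shortest 25% it was 0.16 and 0.18. At 100 nM the correlation was -0.40 in both genotypes. The medians there were -0.57 (WT) and -0.58 (p53KO) for the longest 25%, and 0.49 and 0.50 for the shortest.

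**Figure D5:**
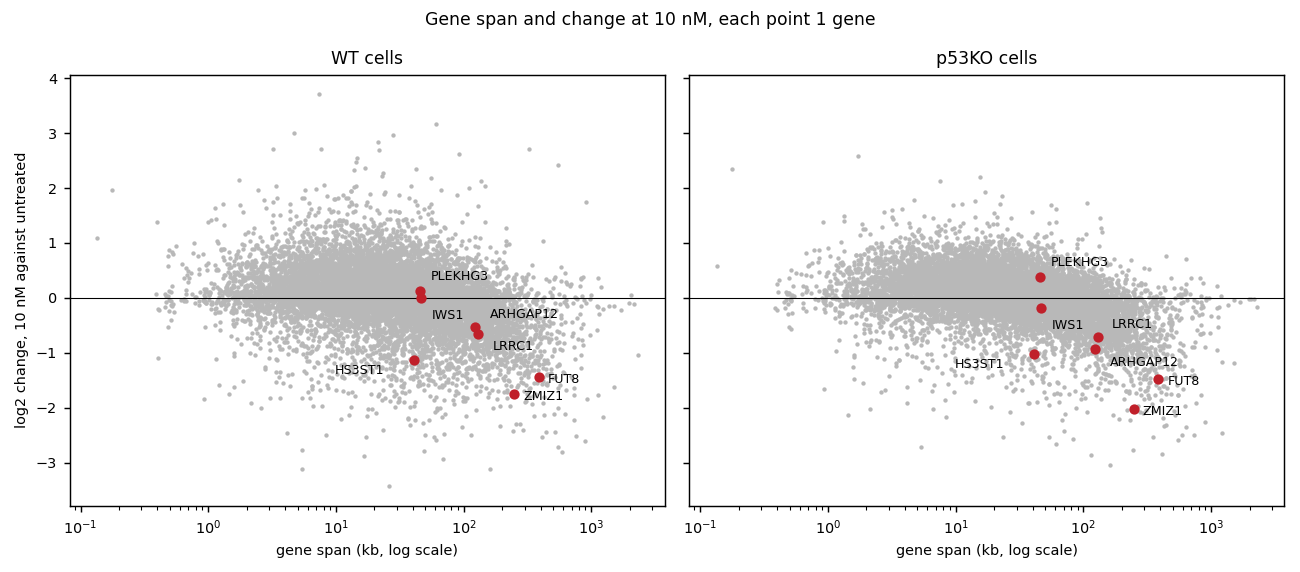
Log2 change at 10 nM against untreated cells by gene span (kb, log scale) for 10881 genes in WT and p53KO cells, each grey point 1 gene and the 7 members in red. FUT8 and ZMIZ1 lie at the long end with changes from -1.45 to -2.03, and HS3ST1 lies well below IWS1 and PLEKHG3 at a like span.

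The other genes of each pathway were taken from lists, described by counts beside the shares of all probes called given above for the same comparisons. Among 20 further genes of heparan sulfate synthesis tested, 6 were lower and 2 higher at 10 nM in WT cells and 5 lower and 0 higher in p53KO cells. GLCE, the epimerase of the chain, changed by -1.12 ± 0.15 in WT (adjusted p = 5e-06) and -0.89 ± 0.15 in p53KO cells (adjusted p = 0.00012), and EXT1, a chain polymerase, by -0.90 ± 0.14 (adjusted p = 3e-05) and -0.93 ± 0.14 (adjusted p = 3.6e-05). The 2-O-sulfotransferase HS2ST1 was called only in the WT test, at -1.21 and -0.74 (adjusted p = 0.0043 and 0.091), a difference between genotypes that was not tested. At 100 nM GLCE changed by -2.37 and -2.27 and EXT1 by -1.79 and -1.95, less far than HS3ST1 in either genotype.

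Of 19 genes of N-glycan processing and fucosylation, 3 were lower and 1 higher in WT cells at 10 nM and 3 lower and 2 higher in p53KO cells. GMDS, which makes the precursor of the fucose donor that FUT8 uses, changed by -2.11 ± 0.21 at 10 nM in WT (adjusted p = 1.6e-07) and by -1.97 ± 0.21 in p53KO cells (adjusted p = 6.6e-07). At 100 nM its values were 0.34 and 0.54, where FUT8 was lost. The mannosidase MAN1A1 had -1.20 at 10 nM in WT (adjusted p = 0.0012) and -0.50 in p53KO cells (adjusted p = 0.19), and MAN1C1 -0.38 (adjusted p = 0.031) and -0.22 (adjusted p = 0.26).

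Of 30 elongation factors, the group of IWS1, 5 were higher and 2 lower in WT cells at 10 nM and 3 higher and 2 lower in p53KO cells. ELL3 rose by 1.58 ± 0.25 in WT (adjusted p = 4.6e-05) and 1.07 ± 0.25 in p53KO cells (adjusted p = 0.003), and NELFB fell by 0.67 (adjusted p = 0.0041) and 0.58 (adjusted p = 0.016). ELL2 had 0.95 in WT (adjusted p = 0.0021) and 0.46 in p53KO cells (adjusted p = 0.15). At 100 nM 12 of the 30 were lower and 7 higher in WT cells, beside 31.4% lower and 34.0% higher over all probes. Of 14 genes of the PIAS and SUMO pathway, the group set beside ZMIZ1, 1 was lower and 2 higher in each genotype at 10 nM. SAE1, part of the SUMO-activating enzyme, changed by -0.81 and -0.50 (adjusted p = 5.3e-05 and 0.0075) and SENP5, a SUMO protease, by 0.93 and 0.76 (adjusted p = 0.00041 and 0.0037). PIAS3 had 0.56 in WT (adjusted p = 0.041) and 0.26 in p53KO cells (adjusted p = 0.41).

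Of 21 epithelial polarity genes, the group of LRRC1, 5 were lower and 1 higher in WT cells at 10 nM and 8 lower and 3 higher in p53KO cells. PATJ changed by -0.71 ± 0.17 (adjusted p = 0.0026) and -1.01 ± 0.17 (adjusted p = 0.00016), PARD3 by -0.69 and -0.90 (adjusted p = 0.005 and 0.00083), and VANGL2 by 0.76 and 0.89 (adjusted p = 0.00079 and 0.00024). Over the 5 lists 28 of 104 genes were called in WT cells and 29 in p53KO cells at 10 nM, where 3865 and 2666 of all 12896 probes were. Under the slide block 13 were called in each genotype, where 16.5% and 7.88% of all probes were.

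Genes with the most similar patterns were found from Pearson's r over the 10 group means, a measure that includes the 100 nM groups. For HS3ST1 these were TACC2, JADE3 and ALKBH3 (r = 0.998, 0.997 and 0.996), and for FUT8 TEAD4, NCKAP1 and ACAP2 (0.991, 0.990 and 0.990). For ZMIZ1 they were NFKB1, ANKS1A and BPTF (0.994, 0.992 and 0.991), for IWS1 STAM, GOLPH3 and CNST (0.999, 0.998 and 0.998). For ARHGAP12 they were BAZ1A, PDP1 and FXR1 (0.998, 0.997 and 0.997), for PLEKHG3 DHX36, TPR and MARCHF7 (0.997, 0.996 and 0.996), and for LRRC1 ABI1, RHBDD1 and WDFY2 (0.998, 0.996 and 0.996). High values were common, since 231 (FUT8) to 801 (IWS1) of 10918 genes had r above 0.95. Without the 100 nM groups, over 8 group means, r was 0.92 between ZMIZ1 and LRRC1 probe 13949 and 0.91 between HS3ST1 and FUT8, but 0.11 between ZMIZ1 and IWS1 and -0.57 between ZMIZ1 and PLEKHG3.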

How the data were processed

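RNA was measured on Illumina bead arrays. For each array the authors deposited a raw table with linear intensity (the mean over beads), bead standard error, bead number and a detection p-value, by its column names. BeadStudio is named in the submitters' processing notes, with no version. A second deposited intensity table, background-subtracted and scaled by a method not given there, was an alternative and tied probes to gene symbols. The tables also hold 26 arrays of other samples, not used here. The targeted gene itself and 2 of the related gene lists are not reported here.

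Raw intensities were corrected and quantile-normalised by limma (version 3.58.1, under R version 4.3.3) by the neqc function, which here took negative controls from detection p-values and added an offset of 16, on the log2 scale. A probe was kept, as 12896 were, if some group had a detection p under 0.01 on each of its 3 arrays. The fit (lmFit, contrasts.fit and eBayes, tested on simulated data) gave each of the 10 groups a mean over 30 arrays, with 20 residual degrees of freedom. Every adjusted p is Benjamini-Hochberg over the 12896 probes and called under 0.05, in 14 tested contrasts. Each ± is the moderated SE. The number of arrays limits the precision.

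The members and lists were chosen with earlier results of these data known. Named genes were all member probes, the 3 genes most correlated with each member, and up to 3 genes per list with the lowest adjusted p among those called in WT cells at 10 nM, with PROM1 and FOS as checks. The annotation gave 21101 probes 1 symbol and 1076 none. Slide, read from the array names in the labels, could enter as a fixed block only for comparisons of genotypes. Arrays of the same number deviated together across the 2 genotypes, with correlations of 0.59 to 0.77 in untreated cells, 0.39 to 0.51 at 1 nM and 0.35 to 0.42 at 10 nM, but -0.41 to 0.03 with nutlin. Between 1 and 10 nM they correlated at 0.32 to 0.53 in WT and 0.11 to 0.33 in p53KO cells. Alternatives changed the table, the normalisation, the offset, the filter, the probe per gene, the slide and replicate blocks and the arrays.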

Additional observations from a re-analysis of the deposited data

How the results depend on the processing

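Single member probes were refitted only where called in the main fit, and FUT8 also in every comparison between genotypes. In 394 such refits 310 kept their direction and side of the threshold, 74 lost the call and 10 gained it. That 0 changed sign says little, since called changes were selected. Probes not called could change sign, as ZMIZ1 with nutlin in WT cells, from -0.13 to 0.19 without the 4 doubted arrays. Of the 248 recounts of called member probes 53 moved by over 1.5 times. Without normalisation between arrays the counts were 1 in both genotypes for 10 against 1 nM, 3 in both for 10 nM against untreated, 1 for WT against p53KO at 1 nM and 0 at 10 nM. Slide as a random block gave 0 in both for 10 against 1 nM, and between genotypes 1 untreated and 4 at 1 nM. As a fixed block it gave 1 untreated, 4 at 1 nM, 2 at 10 nM and 1 with nutlin. The replicate block gave 0 at 10 nM between genotypes, and without the 4 doubted arrays, a setting chosen after seeing the data, 3 untreated, 5 at 1 nM, 4 at 10 nM and 2 with nutlin. It moved no other count by over 1.5 times. For 1 nM in p53KO cells the processed table gave 1, and offset 50 gave 2, with 1 without the third nutlin arrays and 1 without all 4. Between genotypes offset 50 gave 0 at 10 nM, no filter gave 1 at 1 nM, leaving out the third nutlin arrays gave 1 untreated and 1 with nutlin, and leaving out all 4 gave 1, 4, 3 and 1 (untreated, 1 nM, 10 nM, nutlin). Leaving out 1 array gave 1 to 4 for 10 against 1 nM in each genotype, 3 to 5 at 10 nM in WT cells, 0 to 1 at 1 nM in p53KO cells, and between genotypes 0 to 2 at 1 nM, 0 to 1 at 10 nM and 0 to 1 with nutlin. The array left out for 3 at 10 nM in WT cells was untreated replicate 3. The median change at 100 nM was -4.77 in WT and -4.56 in p53KO cells in the processed table, -4.65 and -4.37 without normalisation between arrays, -3.09 and -2.96 with offset 50, -4.34 and -4.05 without the first untreated arrays and -4.33 and -4.04 without all 4, and -4.34 to -4.14 and -4.05 to -3.85 without 1 array. The listed genes called at 10 nM were 13 in each genotype with slide as a random block. The filter of detection on all arrays gave no member value, since no member passes it. The difference between the LRRC1 probes kept its sign in all 18 alternatives run, -0.46 to -0.30 without 1 array. Signals near background at 100 nM limit the falls to bounds.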
